A study of Homo sapiens with 12 samples.

Results

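The genes described here make the machinery that copies DNA once per cell cycle. The list holds 56 genes, chosen by their function and with earlier results of these data known. Of these, 29 have a probe set with a gene name in the array annotation used here, out of 14884 genes with a name, and those 29 are the members measured. All 29 passed the filter on low values (at least 3 arrays above the array's own median), which 10613 genes in all passed, and each lay above the median of every one of the 12 arrays. The other 27 have no named probe set here and are not analysed. They are ORC1 to ORC6 of the origin recognition complex, the licensing inhibitor GMNN, the clamp loader subunits RFC1 to RFC5, and RPA1, RPA2 and RPA3, which coat single-stranded DNA. They also include the polymerase and primase genes POLA1, POLA2, PRIM1, PRIM2, POLD1, POLD2, POLD3, POLE and POLE2, the ligase LIG1 and the histone chaperone subunits CHAF1A and CHAF1B. The results therefore cover the helicase, its loading factors CDC6 and CDT1, its activators, the sliding clamp and the fork protection proteins. They do not cover the origin recognition complex or the clamp loader, and they hold 0 of the 9 polymerase and primase genes.

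The lines A431 and HSC-1, both established human cell lines that the labels give as squamous cell carcinoma of the skin, were compared on 12 Affymetrix whole-transcript arrays of RNA. The groups were A431 with everolimus, A431 with DMSO, HSC-1 with everolimus and HSC-1 with DMSO, with 3 arrays in each. Everolimus is a relative of rapamycin and an inhibitor of mTOR complex 1. It was given at 100 nM for 72 h, and DMSO is its solvent, given for the same time. The title of the study concerns resistance to everolimus, and the labels do not say whether either line is resistant. Whether replicate arrays stand for separate cultures is not given either. The p-values therefore describe the spread between arrays, and that spread may be technical. All levels below are log2 values on the RMA scale as deposited, and a level of one gene is not set against that of another.

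Over all probe sets, correlations were 0.989 to 0.992 within a group and 0.955 to 0.962 across lines. All 7 squamous keratinocyte markers with a named probe set, KRT5 and KRT14 among them, lay above the array median on all 12 arrays. The 3 named endothelial markers PECAM1, VWF and KDR lay below it on every array. Markers of other cell types were mixed. Of the 5 named melanocyte markers, MITF and SOX10 lay above the median on all 12 arrays, PMEL on 1, and MLANA and TYR on 0. Of the 3 named fibroblast markers, THY1 lay above it on 12 arrays, LUM on 6 and DCN on 0. Of the 2 named leukocyte markers, CD14 lay above it on 5 arrays and LYZ on 0.

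Replication starts in G1, when the origin recognition complex, CDC6 and CDT1 load the ring of MCM2 to MCM7 onto DNA. At the start of S phase the kinase CDC7 with its activator DBF4 marks the ring, and CDC45 and the 4 GINS subunits join it with the help of MCM10 to form the active helicase. Behind the helicase the clamp PCNA holds the polymerases on DNA, FEN1 and DNA2 trim the ends of lagging-strand fragments, and CLSPN, TIMELESS and TIPIN keep the fork stable and pass on checkpoint signals. Transcription of many of these genes is controlled by the E2F family, which is held back by the retinoblastoma protein until cyclin-dependent kinases release it, and mTOR complex 1 is known to support passage from G1 into S phase.

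Of the 29 members, 24 have a promoter in the RefSeq table (build GRCh38.p14), taken as 250 bases before the transcription start to 50 bases from it. MCM4, MCM5, GINS4, CCNE2 and DNA2 have no entry in it. Each promoter was searched on both strands for the E2F motif, written as TTTCCCGC, TTTCGCGC, TTTGCCGC or TTTGGCGC. The motif was found in 16 of the 24 promoters, or 66.7%, against 5.08% of the 8089 promoters of all tested genes in the table and 3.33% of all 27305 promoters. The CCAAT box, searched as CCAAT, was in 16 of 24 (66.7%, against 36.3% of the promoters of tested genes). The cell cycle homology region, searched as TTTGAA or TTCGAA, was in 2 of 24 (8.33%, against 11.1%). Letters of the searched motifs can overlap, and a match says that the letters are there and not that a factor binds.

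The promoters of the 6 members with the largest falls in HSC-1 are printed 5′ to 3′ in the direction of the gene, to show where the motif lies if present. Whether the motif goes with the fall was not tested. Capitals mark the E2F motif as read on either strand. The first 4 hold 1 match each and the next, MCM10 and TIPIN, hold none. MCM6, chosen after its values were seen, is the member with the most matches and had the smallest difference in HSC-1. Its 4 matches lie at 2 places, since at each place matches on opposite strands overlap.
CDC6, chr17:40287629-40287928, plus strand: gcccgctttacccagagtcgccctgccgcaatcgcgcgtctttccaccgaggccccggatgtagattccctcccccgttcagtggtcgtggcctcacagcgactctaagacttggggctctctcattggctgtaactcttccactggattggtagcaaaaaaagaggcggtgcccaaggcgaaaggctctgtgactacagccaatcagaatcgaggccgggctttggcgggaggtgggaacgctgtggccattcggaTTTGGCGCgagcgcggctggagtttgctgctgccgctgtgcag
CLSPN, chr1:35769929-35770228, minus strand: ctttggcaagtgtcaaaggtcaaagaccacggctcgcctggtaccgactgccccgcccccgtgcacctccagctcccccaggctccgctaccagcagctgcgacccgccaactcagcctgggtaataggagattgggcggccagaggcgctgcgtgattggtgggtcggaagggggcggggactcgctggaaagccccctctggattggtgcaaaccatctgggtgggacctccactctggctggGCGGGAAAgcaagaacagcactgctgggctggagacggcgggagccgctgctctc
GINS2, chr16:85688905-85689204, minus strand: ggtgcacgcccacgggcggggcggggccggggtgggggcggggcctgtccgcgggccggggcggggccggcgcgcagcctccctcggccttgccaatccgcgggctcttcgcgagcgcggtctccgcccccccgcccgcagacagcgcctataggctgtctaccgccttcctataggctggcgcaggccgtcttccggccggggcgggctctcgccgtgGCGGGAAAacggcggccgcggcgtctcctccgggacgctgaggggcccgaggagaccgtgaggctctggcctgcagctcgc
CDC25A, chr3:48188368-48188667, minus strand: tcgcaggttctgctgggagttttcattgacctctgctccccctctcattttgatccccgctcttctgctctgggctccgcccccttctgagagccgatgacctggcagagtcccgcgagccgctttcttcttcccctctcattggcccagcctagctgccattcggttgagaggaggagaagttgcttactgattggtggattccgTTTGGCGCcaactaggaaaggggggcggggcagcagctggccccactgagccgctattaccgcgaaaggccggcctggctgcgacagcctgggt
MCM10, chr10:13161308-13161607, plus strand: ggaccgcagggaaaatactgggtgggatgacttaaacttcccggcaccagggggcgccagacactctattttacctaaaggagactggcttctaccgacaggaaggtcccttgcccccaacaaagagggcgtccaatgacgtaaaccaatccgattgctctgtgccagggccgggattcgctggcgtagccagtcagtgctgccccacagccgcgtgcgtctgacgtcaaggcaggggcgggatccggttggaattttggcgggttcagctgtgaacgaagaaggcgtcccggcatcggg
TIPIN, chr15:66386668-66386967, minus strand: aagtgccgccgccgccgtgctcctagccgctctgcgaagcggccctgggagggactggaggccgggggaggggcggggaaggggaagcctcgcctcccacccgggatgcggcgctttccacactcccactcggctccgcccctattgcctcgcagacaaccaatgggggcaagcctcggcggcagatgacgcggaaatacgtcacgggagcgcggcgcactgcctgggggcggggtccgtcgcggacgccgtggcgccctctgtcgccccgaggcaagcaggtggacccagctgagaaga
MCM6, chr2:135876394-135876693, minus strand: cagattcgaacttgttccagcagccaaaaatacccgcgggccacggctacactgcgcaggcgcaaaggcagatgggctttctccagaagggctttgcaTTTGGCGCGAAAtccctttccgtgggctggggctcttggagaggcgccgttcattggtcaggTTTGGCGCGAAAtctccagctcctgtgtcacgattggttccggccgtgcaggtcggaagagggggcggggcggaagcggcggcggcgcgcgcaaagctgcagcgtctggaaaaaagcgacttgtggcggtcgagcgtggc

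The match began 44 bases before the start in CDC25A, 31 before it in GINS2 and 5 before it in CLSPN, and in CDC6 it began at base 8 of the transcript. Of the 20 members with a promoter that fell in HSC-1, 13 held the motif (65%), and of the 4 that did not pass, 3 held it (75%). Only 4 of these promoters belong to members that did not pass, too few to compare the shares, which were not tested against each other. The map of the matches shows their distances from the start.

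**Figure D1:**
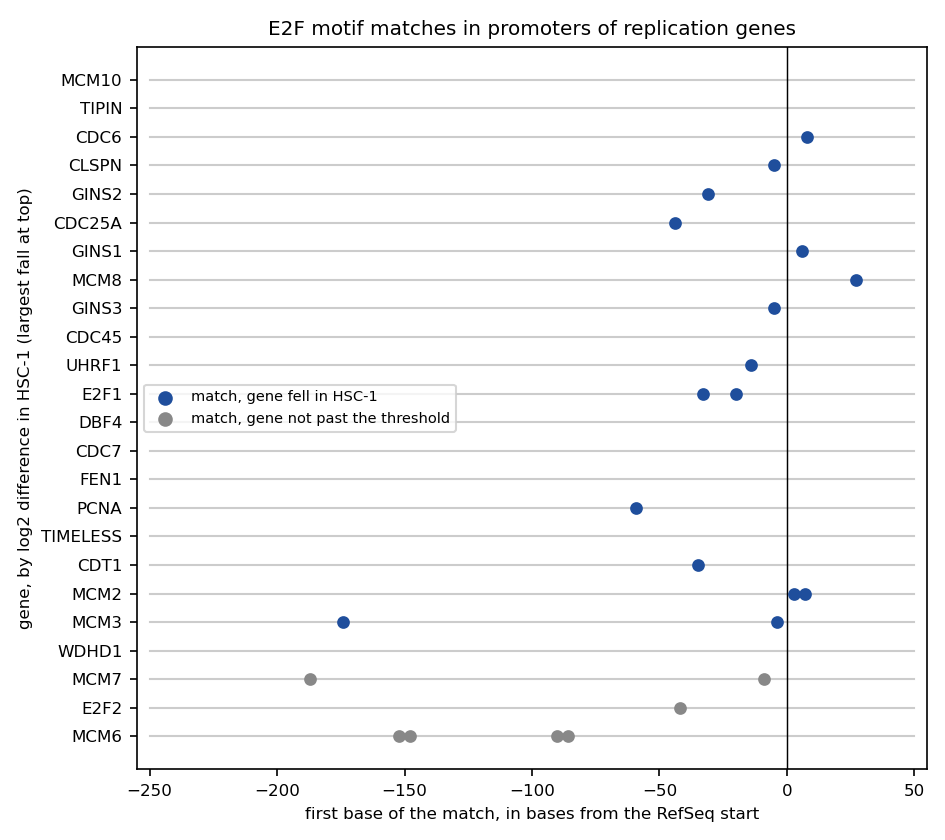
Positions of E2F motif matches (points) in the 24 promoters, with the distance of the first matched base from the RefSeq transcription start in bases on the horizontal axis and genes on the vertical axis, ordered by their log2 difference in HSC-1 with the largest fall at the top. Blue points are matches in genes that fell in HSC-1, grey points are matches in genes that did not pass the threshold there, and most matches lie near the start.

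Most of the replication genes fell with everolimus in HSC-1. A gene was called where its adjusted p was under 0.05 in limma, with Benjamini-Hochberg adjustment over all 10613 tested genes. By that rule 25 of the 29 members fell and 0 rose, whereas 11.3% of all tested genes fell and 7.34% rose. All 29 log2 differences were negative, with a median of -0.29 and a range from -0.57 to -0.04, beside a median of -0.02 over all tested genes. The falls were modest, from 1.12-fold to 1.49-fold. On 27 members the 3 everolimus arrays all lay below the 3 DMSO arrays, against 19.6% of all tested genes, and on 0 members they all lay above, against 13.7%. Everolimus arrays averaged 7.43 to 7.48 over the members in HSC-1, and DMSO arrays 7.72 to 7.77. In A431 the same averages were 7.80 to 7.84 with everolimus and 7.69 to 7.75 with DMSO. RNA from whole cultures cannot tell fewer cells in S phase from less RNA per cell, and which of these applies was not tested.

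The heat map of the members shows this array by array.

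**Figure D2:**
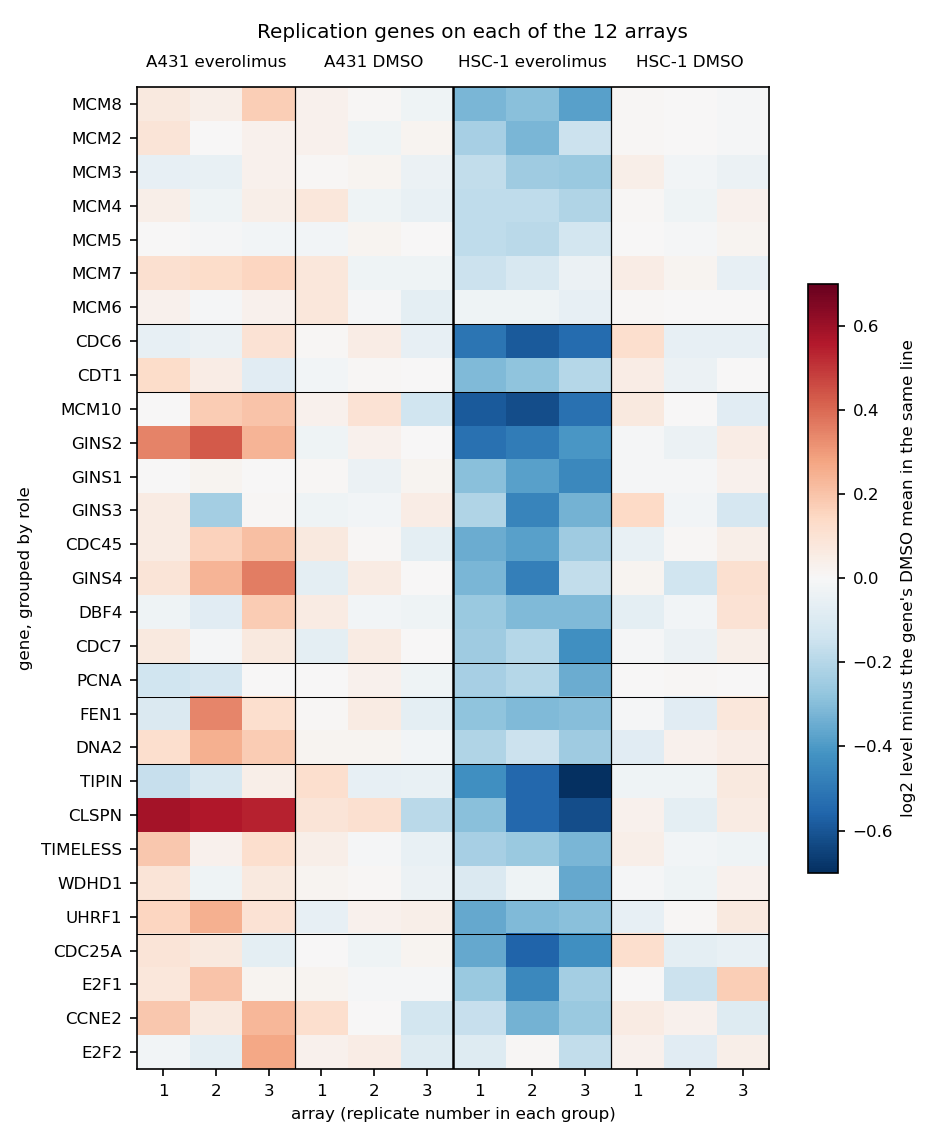
Each cell is the log2 level of a gene (rows, grouped by role) on one array (columns, 3 replicates in each group), minus the mean of the gene's 3 DMSO arrays in the same line. Blue is lower and red is higher than DMSO, and the HSC-1 everolimus arrays are blue in nearly every row, while in A431 the strongest red cells belong to CLSPN.

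Both measured origin licensing factors fell in HSC-1. CDC6, the ATPase that helps load the MCM ring, had levels of 7.67, 7.59 and 7.64 with everolimus, against 8.30, 8.12 and 8.12 with DMSO in HSC-1. The groups were far apart compared with their spread, and CDC6 fell by 0.55 ± 0.06 (SE), or 1.46-fold (limma adjusted p = 2.8e-06). In A431 its levels were 8.25, 8.27 and 8.41 with everolimus and 8.32, 8.36 and 8.25 with DMSO, which overlap. The A431 difference was 0.00 ± 0.06, with a 95% confidence interval from -0.12 to 0.12 (limma adjusted p = 0.993). CDT1, the partner of CDC6 in loading, had 7.20, 7.23 and 7.31 with everolimus and 7.56, 7.47 and 7.51 with DMSO in HSC-1 and fell by 0.26 ± 0.06 (limma adjusted p = 0.00313). In A431 CDT1 had 7.90, 7.82 and 7.69 with everolimus and 7.75, 7.78 and 7.77 with DMSO, and its difference of 0.04 ± 0.06 did not pass.

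All 8 members that turn the loaded ring into a working helicase fell in HSC-1, with a median log2 difference of -0.33. MCM10, which binds the ring and is needed to start unwinding, showed the largest fall of all members. Its levels were 6.73, 6.70 and 6.80 with everolimus and 7.39, 7.32 and 7.24 with DMSO, so that MCM10 fell by 0.57 ± 0.07, a 1.49-fold change (limma adjusted p = 1.81e-05). In A431 MCM10 had 7.48, 7.66 and 7.68 with everolimus and 7.51, 7.58 and 7.34 with DMSO. Those A431 groups overlap, and the difference of 0.13 ± 0.07 did not pass (limma adjusted p = 0.348). CDC45, a core part of the active helicase, had 6.87, 6.84 and 6.97 with everolimus and 7.17, 7.23 and 7.26 with DMSO in HSC-1 and fell by 0.32 ± 0.06. In A431 CDC45 had 7.19, 7.29 and 7.34 with everolimus and 7.20, 7.14 and 7.06 with DMSO, which overlap (difference 0.14 ± 0.06). The kinase CDC7 fell by 0.29 ± 0.06 in HSC-1 and its activator DBF4 by 0.30 ± 0.07, and neither passed in A431 (0.05 ± 0.06 and 0.02 ± 0.07).

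All 4 GINS subunits, which work as one complex, fell in HSC-1, and 1 of them, GINS2, rose in A431. GINS2 had 7.07, 7.10 and 7.18 with everolimus and 7.58, 7.55 and 7.64 with DMSO in HSC-1 and fell by 0.47 ± 0.06 (limma adjusted p = 1.94e-05). In A431 GINS2 was higher with everolimus, at 7.46, 7.54 and 7.35, than with DMSO, at 7.08, 7.14 and 7.11. It rose there by 0.34 ± 0.06, or 1.26-fold (limma adjusted p = 0.00155). GINS1 fell by 0.38 ± 0.05 in HSC-1 and had a difference of 0.01 ± 0.05 in A431. GINS3 fell by 0.33 ± 0.08 in HSC-1 (limma adjusted p = 0.00773) and GINS4 by 0.32 ± 0.10 (limma adjusted p = 0.0258), and in A431 their differences of -0.06 ± 0.08 and 0.23 ± 0.10 did not pass. GINS4 had 5.84, 5.68 and 5.99 with everolimus and 6.18, 6.02 and 6.27 with DMSO in HSC-1, and 6.43, 6.58 and 6.70 with everolimus and 6.27, 6.40 and 6.34 with DMSO in A431, with no overlap in either line. The GINS3 call in HSC-1 was lost without HSC-1 everolimus replicate 2 (adjusted p = 0.0523) or HSC-1 DMSO replicate 1 (0.0575). The GINS4 call was lost when HSC-1 everolimus replicate 1 (0.0541) or 2 (0.134) was left out, when HSC-1 DMSO replicate 1 (0.0785) or 3 (0.111) was left out, and with the mean of its probe sets (0.0605). GINS4 has a second named probe set below the array median on all 12 arrays, with differences of 0.18 in A431 and -0.29 in HSC-1.

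Among MCM2 to MCM7 and the related MCM8, 5 fell in HSC-1 and 2 were not called. The median of the 7 was -0.19, beside -0.29 over the 29 members, a difference that was not tested. MCM2 had 8.24, 8.15 and 8.32 with everolimus and 8.48, 8.47 and 8.46 with DMSO in HSC-1 and fell by 0.23 ± 0.05 (limma adjusted p = 0.00209). MCM5 had 8.05, 8.04 and 8.10 with everolimus and 8.23, 8.22 and 8.25 with DMSO, closely spaced within each group, and fell by 0.17 ± 0.04. MCM3 had 8.77, 8.69 and 8.68 with everolimus and 8.98, 8.92 and 8.90 with DMSO and fell by 0.22 ± 0.04. The fall of MCM4 was 0.19 ± 0.04. MCM7 had 9.33, 9.37 and 9.44 with everolimus and 9.53, 9.50 and 9.42 with DMSO in HSC-1, and these groups overlap. Its difference of -0.10 ± 0.05 did not pass (limma adjusted p = 0.149, 95% confidence interval from -0.20 to 0.00). MCM6, another subunit of the same ring, had a difference of -0.04 ± 0.05 (limma adjusted p = 0.599, 95% confidence interval from -0.14 to 0.05), although its everolimus arrays all lay below its DMSO arrays. MCM8, a relative of the ring subunits that acts with MCM9 in repair of broken forks, had 9.61, 9.64 and 9.55 with everolimus and 9.94, 9.93 and 9.92 with DMSO and fell by 0.33 ± 0.04, the largest fall among these 7.

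Of these 7 genes, 0 passed in A431 in either direction by limma, where 2.39% of all tested genes rose and 4.33% fell at the same adjusted threshold. By limma, 2 of the 7, MCM7 and MCM8, had an unadjusted p under 0.05, a cut-off at which all tested genes were not counted. MCM2 had 8.70, 8.61 and 8.64 with everolimus and 8.64, 8.58 and 8.63 with DMSO in A431, which overlap. MCM5 had 9.11, 9.10 and 9.09 with everolimus and 9.09, 9.13 and 9.11 with DMSO, and all 6 arrays lay close together. MCM3 had 9.68, 9.69 and 9.77 with everolimus and 9.75, 9.76 and 9.70 with DMSO, again with overlap. The A431 differences of MCM2 to MCM6 lay between -0.02 and 0.04. MCM7 was the only one of MCM2 to MCM7 with separated arrays in A431, at 8.24, 8.26 and 8.28 with everolimus and 8.21, 8.10 and 8.10 with DMSO. Its difference of 0.13 ± 0.05 had a limma adjusted p of 0.125, which became 0.0301 (difference 0.15) where quantile normalization was applied again. MCM8 had 9.32, 9.29 and 9.42 with everolimus and 9.28, 9.26 and 9.22 with DMSO and a difference of 0.09 ± 0.04, which did not pass.

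PCNA, the clamp that ties the polymerases to DNA, had 9.75, 9.78 and 9.63 with everolimus and 9.98, 9.99 and 9.98 with DMSO in HSC-1. The DMSO arrays were nearly equal, and PCNA fell by 0.27 ± 0.04 (limma adjusted p = 0.000303). In A431 it had 9.93, 9.95 and 10.07 with everolimus and 10.07, 10.10 and 10.04 with DMSO, which overlap, and a difference of -0.09 ± 0.04, the lowest of the members in that line (limma adjusted p = 0.298). The nucleases FEN1 and DNA2, which trim Okazaki fragments, fell in HSC-1 by 0.29 ± 0.08 (limma adjusted p = 0.0205) and 0.20 ± 0.06 (limma adjusted p = 0.0196). The FEN1 call was lost without HSC-1 everolimus replicate 2 (0.0591) or HSC-1 DMSO replicate 1 (0.0553) or 3 (0.0866), and without the intensity trend in the variances (0.0574). The DNA2 call was lost without HSC-1 everolimus replicate 3 (0.0569) or HSC-1 DMSO replicate 2 (0.0733) or 3 (0.0800), and in a fit on the 6 HSC-1 arrays alone (0.0529). In A431 the differences were 0.12 ± 0.08 for FEN1 and 0.18 ± 0.06 for DNA2, and neither passed.

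Of the 4 fork protection genes, 3 fell in HSC-1, and CLSPN moved in opposite directions in the lines. CLSPN, or claspin, the adaptor through which the fork activates the checkpoint kinase CHEK1, had 6.91, 6.65 and 6.58 with everolimus and 7.23, 7.13 and 7.26 with DMSO in HSC-1. It fell there by 0.49 ± 0.09 or 1.4-fold (limma adjusted p = 0.000691). In A431 CLSPN was higher with everolimus on every array, at 7.11, 7.09 and 7.07, against 6.62, 6.64 and 6.34 with DMSO. It rose by 0.55 ± 0.09 or 1.47-fold (limma adjusted p = 0.000596), the largest difference of a member in A431. CLSPN has a second named probe set that lay below the array median on all 12 arrays, with differences of -0.06 in A431 and 0.01 in HSC-1. With the mean of both probe sets the CLSPN difference was 0.25 in A431 (adjusted p = 0.249) and -0.24 in HSC-1 (adjusted p = 0.166), and both calls were lost.

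TIPIN, the partner of TIMELESS, had 6.77, 6.65 and 6.50 with everolimus and 7.17, 7.17 and 7.27 with DMSO in HSC-1 and fell by 0.56 ± 0.08 or 1.48-fold (limma adjusted p = 5.99e-05). Its A431 levels were 6.85, 6.90 and 7.05 with everolimus and 7.13, 6.95 and 6.96 with DMSO, which overlap (difference -0.08 ± 0.08, not past the threshold). TIMELESS fell by 0.27 ± 0.06 in HSC-1. WDHD1, which links the helicase to polymerase alpha, had 8.0, 8.07 and 7.74 with everolimus and 8.09, 8.07 and 8.13 with DMSO in HSC-1. HSC-1 everolimus replicate 3 was the lowest by a wide margin and replicate 2 equalled the lowest DMSO array to 2 decimals. The WDHD1 difference of -0.16 ± 0.07 did not pass (limma adjusted p = 0.101), but without HSC-1 everolimus replicate 2 it was -0.23 and passed (adjusted p = 0.0301). In A431 TIMELESS and WDHD1 had differences of 0.12 ± 0.06 and 0.04 ± 0.07, which did not pass.

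UHRF1, which brings the maintenance DNA methyltransferase to newly copied DNA, had 7.31, 7.36 and 7.38 with everolimus and 7.61, 7.68 and 7.74 with DMSO in HSC-1 and fell by 0.32 ± 0.06 (limma adjusted p = 0.000502). In A431 it had 7.64, 7.74 and 7.59 with everolimus and 7.43, 7.52 and 7.53 with DMSO. Those groups do not overlap, but the difference of 0.16 ± 0.06 did not pass (limma adjusted p = 0.0958).

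Among the G1/S regulators, CDC25A, the phosphatase that activates cyclin-dependent kinases at S phase entry, fell most in HSC-1. It had 6.38, 6.18 and 6.31 with everolimus and 6.86, 6.67 and 6.69 with DMSO and fell by 0.45 ± 0.08 or 1.36-fold (limma adjusted p = 0.000713). In A431 CDC25A had 6.19, 6.17 and 6.03 with everolimus and 6.10, 6.07 and 6.12 with DMSO, which overlap (difference 0.03 ± 0.08). E2F1, an activating member of the E2F family, had 6.61, 6.42 and 6.63 with everolimus and 6.87, 6.72 and 7.04 with DMSO in HSC-1. It fell by 0.32 ± 0.08 (limma adjusted p = 0.0116). The E2F1 call did not hold without HSC-1 everolimus replicate 2 (0.0723) or HSC-1 DMSO replicate 3 (0.0757). In A431 E2F1 had 6.85, 6.97 and 6.79 with everolimus and 6.79, 6.76 and 6.76 with DMSO, and its difference of 0.10 ± 0.08 did not pass.

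CCNE2, a cyclin that drives S phase entry, had 6.52, 6.35 and 6.42 with everolimus and 6.74, 6.71 and 6.59 with DMSO in HSC-1. It fell by 0.25 ± 0.08 (limma adjusted p = 0.0335), the highest adjusted p among the members called. The CCNE2 call was lost when HSC-1 everolimus replicate 2 (0.135) or 3 (0.0680) was left out, when HSC-1 DMSO replicate 1 (0.127) or 2 (0.0986) was left out, and without the intensity trend (0.0538). In A431 CCNE2 had 6.85, 6.73 and 6.89 with everolimus and 6.78, 6.66 and 6.53 with DMSO, with a difference of 0.17 ± 0.08. E2F2, another activating E2F, had 6.08, 6.18 and 6.0 with everolimus and 6.20, 6.09 and 6.21 with DMSO in HSC-1. Those groups overlap and the difference of -0.08 ± 0.09 did not pass (limma adjusted p = 0.618). In A431 E2F2 had 6.73, 6.68 and 7.02 with everolimus and 6.78, 6.80 and 6.66 with DMSO, which also overlap (difference 0.07 ± 0.09).

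In A431 as a whole, 2 of the 29 members rose (2.39% of all tested genes), 0 fell (4.33% of all tested genes) and 27 did not pass. The risers were CLSPN and GINS2. Of the 29 differences 24 were above 0, with a median of 0.05 beside 0.00 over all tested genes. The everolimus arrays all lay above the DMSO arrays for 7 members (CLSPN, GINS2, GINS4, DNA2, UHRF1, MCM7 and MCM8), against 11.0% of all tested genes, and all below for 0, against 13.5%. Fitted differences with their errors are set side by side for both lines in the plot of effects.

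**Figure D3:**
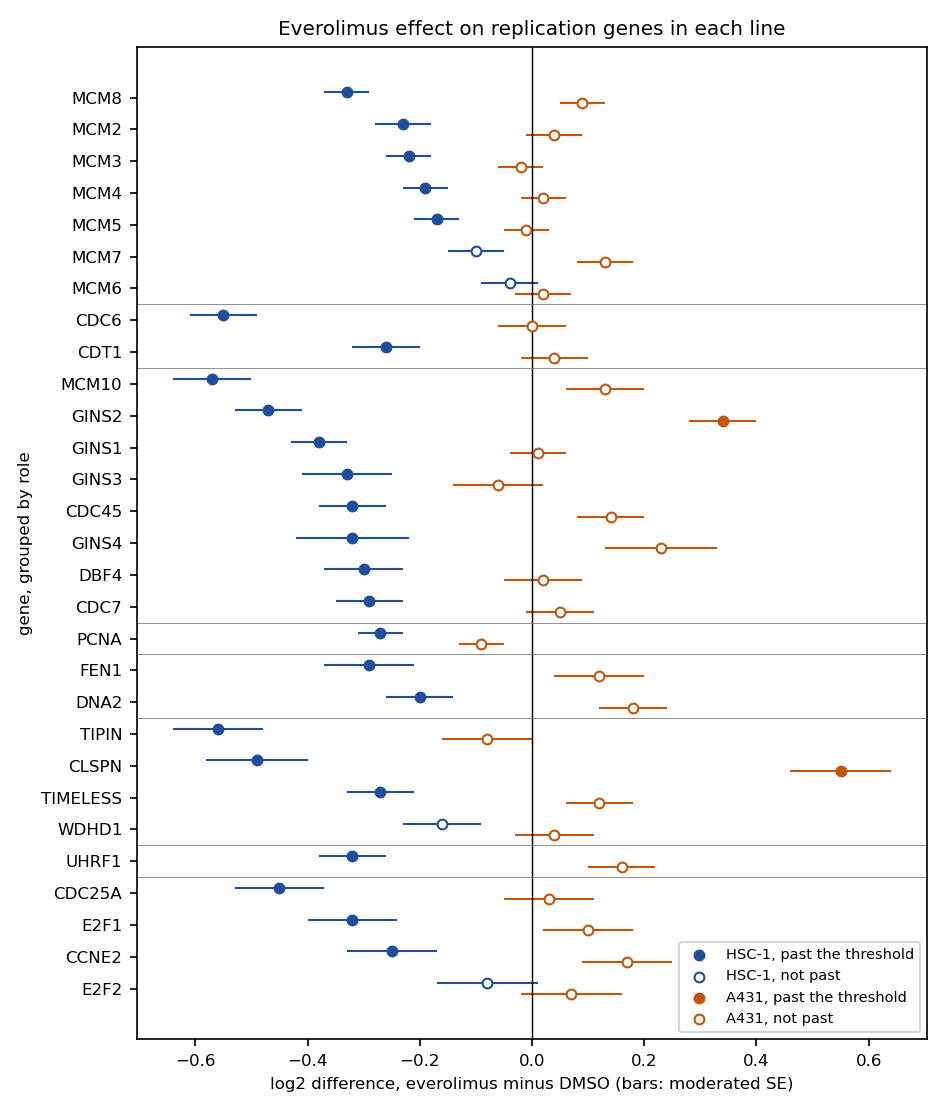
Log2 difference, everolimus minus DMSO, for each gene (rows, grouped by role) in HSC-1 (blue) and A431 (orange), with bars of 1 moderated standard error on each side. Filled points passed an adjusted p of 0.05 and open points did not. All HSC-1 points lie left of 0, and in A431 only CLSPN and GINS2 are filled, both to the right.

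Some marker lists moved with everolimus and their part in these results was not tested. In A431 the summed log2 level of the 7 named squamous keratinocyte markers was 62.27 to 62.32 with everolimus and 63.37 to 63.95 with DMSO. In HSC-1 the sum over the 2 named leukocyte markers of 6 listed, CD14 and LYZ, was 6.31 to 6.95 with everolimus and 7.10 to 7.34 with DMSO, and LYZ lay below the array median on all 12 arrays. The sum over the 5 named melanocyte markers of 6 was 21.57 to 21.99 with everolimus and 22.18 to 22.36 with DMSO in HSC-1, with MLANA and TYR below the median on all arrays and MITF and SOX10 above it on all arrays.

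The response of the replication genes differed between the lines. The everolimus effect in HSC-1 minus that in A431 was tested for each gene in the same fit. It was negative for all 29 members, with a median of -0.39 beside -0.01 over all tested genes, and 22 passed as lower in HSC-1 against 5.69% of all tested genes. For 0 members was it higher in HSC-1, against 4.84% of all tested genes. The widest gaps belonged to CLSPN (-1.04 ± 0.13, limma adjusted p = 3.15e-05), GINS2 (-0.81 ± 0.08, limma adjusted p = 7.36e-06), MCM10 (-0.70 ± 0.10, limma adjusted p = 0.000177), GINS4 (-0.55 ± 0.14, limma adjusted p = 0.0129) and CDC6 (-0.55 ± 0.08, limma adjusted p = 0.000247). CLSPN and GINS2 were the 2 members called in both lines, in opposite directions. Of the 25 that fell in HSC-1, 19 others passed the test of the difference without a call in A431 and 4 did not pass it. Those 4 were DBF4 (-0.32 ± 0.10, limma adjusted p = 0.058), GINS3 (-0.28 ± 0.12, 0.15), PCNA (-0.18 ± 0.06, 0.0756) and MCM5 (-0.15 ± 0.06, 0.0897), for which a different response in the lines was not shown. WDHD1, E2F2 and MCM6 passed none of these tests. MCM7 passed the test of the difference (-0.23 ± 0.07, limma adjusted p = 0.0325) without a call in either line. Of the 22, 12 kept the call under all 21 alternatives, among them GINS2, MCM10 and CDC6, and 10 lost it under at least 1. CLSPN was one of the 10, with a difference of -0.49 and an adjusted p of 0.0637 where its probe sets were averaged. The number that passed was 14 without the intensity trend in the variances.

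For 4 members the order of the lines turned round with treatment. With everolimus, CLSPN, GINS2, TIPIN and UHRF1 were lower on every HSC-1 array than on every A431 array, and with DMSO they were higher on every HSC-1 array. For CLSPN the HSC-1 arrays lay at 6.58 to 6.91 and the A431 arrays at 7.07 to 7.11 with everolimus. With DMSO, CLSPN lay at 7.13 to 7.26 in HSC-1 and 6.34 to 6.64 in A431. The TIPIN ranges nearly touched, at 6.50 to 6.77 in HSC-1 and 6.85 to 7.05 in A431 with everolimus. With DMSO they were 7.17 to 7.27 and 6.95 to 7.13. The call between the lines in DMSO was lost in 11 of 22 alternatives for TIPIN and in 1 of 22 for UHRF1. Of the other members, 13 were lower on all HSC-1 arrays under both treatments, 4 were higher under both, 6 were lower with everolimus and overlapped with DMSO, and 2 overlapped with everolimus and were higher with DMSO. With DMSO, 32.3% of all tested genes were higher and 32.9% lower on every HSC-1 array. The order with everolimus was not counted over all tested genes, so whether these counts are unusual is not known. The plot of levels shows these 4 genes with MCM10 and CDC6.

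**Figure D4:**
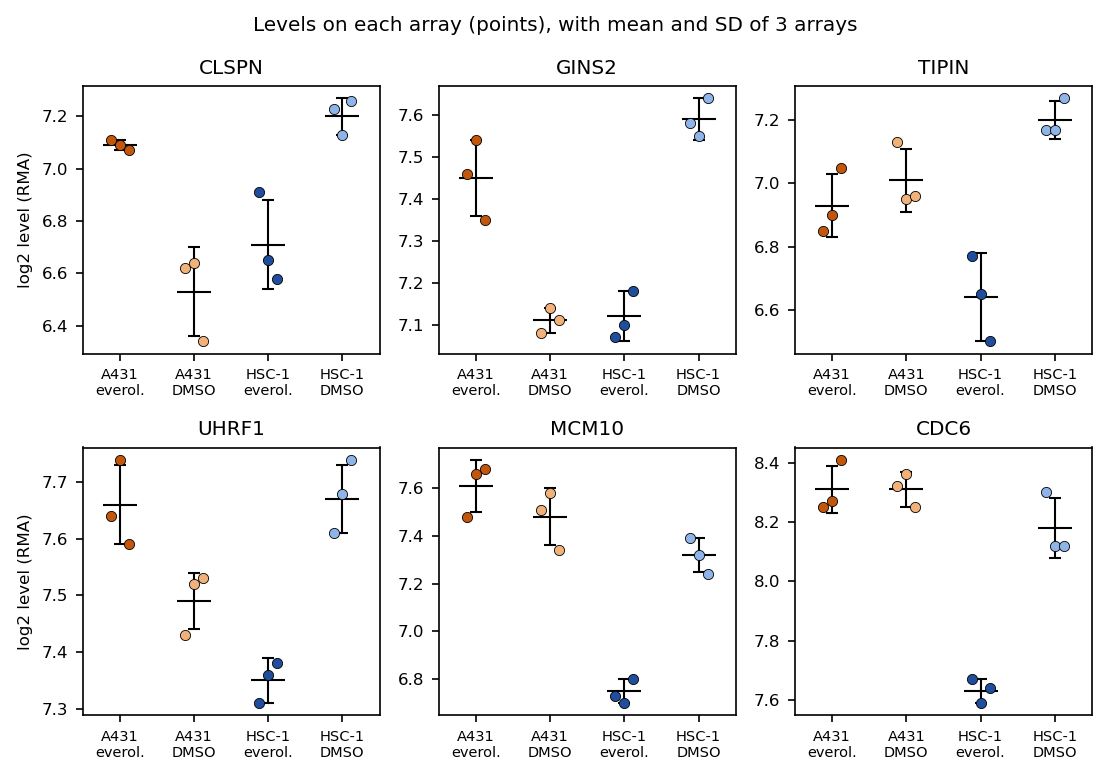
Log2 levels on the RMA scale (vertical axis, a separate range in each panel) of 6 genes on the 12 arrays, with points for arrays and a line and bars for the mean and SD of 3 arrays in each group. For CLSPN and GINS2 the A431 everolimus arrays lie above A431 DMSO and the HSC-1 everolimus arrays lie below HSC-1 DMSO. MCM10 and CDC6 overlap in A431 and are separated in HSC-1.

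In solvent alone the lines differed in individual replication genes, in both directions. With DMSO, 10 members were higher and 11 lower in HSC-1 than in A431, and 8 did not pass. Over all tested genes 29.2% were higher and 30.2% lower, so calls are common in this comparison. The arrays of the lines were separated for 10 members with HSC-1 above A431 (32.3% of all tested genes) and for 13 with HSC-1 below (32.9%). The median log2 difference was -0.13, beside 0.00 over all tested genes.

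The 3 members with the widest differences between the lines in DMSO, MCM7, MCM5 and MCM3, were subunits of the MCM ring, and they differed in opposite directions. MCM7 had 9.53, 9.50 and 9.42 in HSC-1 DMSO and 8.21, 8.10 and 8.10 in A431 DMSO, which makes it 2.55-fold higher in HSC-1 (1.35 ± 0.05, limma adjusted p = 1.27e-14). MCM4 was also higher in HSC-1 (0.48 ± 0.04), and the related MCM8 was at 9.94, 9.93 and 9.92 in HSC-1 and 9.28, 9.26 and 9.22 in A431 (0.68 ± 0.04). MCM5 lay the other way, at 8.23, 8.22 and 8.25 in HSC-1 and 9.09, 9.13 and 9.11 in A431, which makes it 1.84-fold lower in HSC-1 (-0.88 ± 0.04, limma adjusted p = 5.91e-13). MCM3 was at 8.98, 8.92 and 8.90 in HSC-1 and 9.75, 9.76 and 9.70 in A431 (-0.80 ± 0.04). MCM6 was lower in HSC-1 as well (-0.36 ± 0.05), and so was MCM2 (-0.15 ± 0.05, limma adjusted p = 0.0134), whose call was lost where quantile normalization was applied again (difference -0.11, adjusted p = 0.0683). Of the 6 subunits, which the ring holds in equal numbers, 2 were higher and 4 lower in HSC-1. The plot of the ring subunits shows that the gap between lines in DMSO was wider than either everolimus effect for MCM3 to MCM7. For MCM2 the gap of -0.15 was smaller in size than the everolimus effect of -0.23 in HSC-1.

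**Figure D5:**
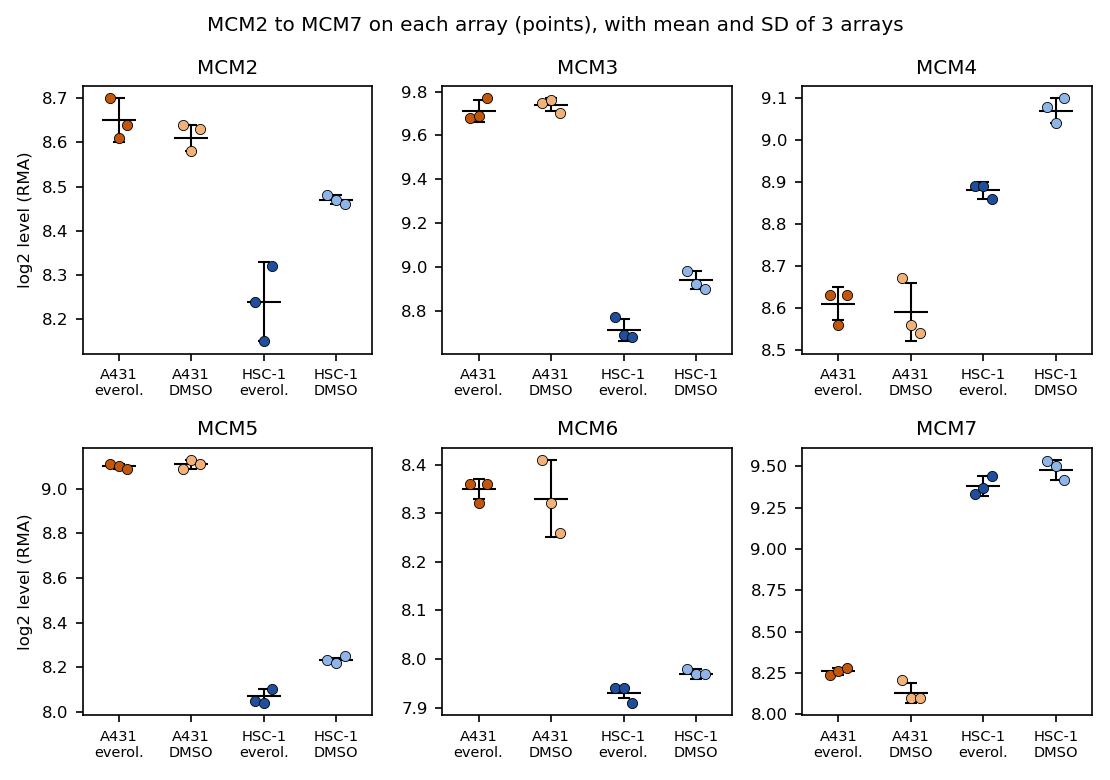
Log2 levels on the RMA scale (vertical axis, a separate range in each panel) of MCM2 to MCM7 on the 12 arrays, with points for arrays and a line and bars for the mean and SD of 3 arrays in each group. MCM4 and MCM7 are higher in HSC-1 than in A431, and MCM2, MCM3, MCM5 and MCM6 are lower.

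Among the other roles, CLSPN was at 7.23, 7.13 and 7.26 in HSC-1 DMSO and 6.62, 6.64 and 6.34 in A431 DMSO (0.67 ± 0.09, 1.59-fold higher in HSC-1). CDC25A was at 6.86, 6.67 and 6.69 in HSC-1 and 6.10, 6.07 and 6.12 in A431 (0.64 ± 0.08, 1.56-fold higher in HSC-1). DBF4 (0.60 ± 0.07), GINS2 (0.48 ± 0.06) and CDC7 (0.29 ± 0.06) were also higher in HSC-1. E2F2 was at 6.20, 6.09 and 6.21 in HSC-1 and 6.78, 6.80 and 6.66 in A431 (-0.58 ± 0.09), and WDHD1 was at 8.09, 8.07 and 8.13 in HSC-1 and 8.54, 8.53 and 8.48 in A431 (-0.42 ± 0.07). Both were lower in HSC-1 with no overlap. DNA2 (-0.29 ± 0.06), GINS1 (-0.27 ± 0.05) and CDT1 (-0.26 ± 0.06) were lower in HSC-1 too. Of the remaining calls, UHRF1 was higher in HSC-1 (0.18 ± 0.06) and lost its call without HSC-1 DMSO replicate 3 (adjusted p = 0.0517). TIPIN (0.19 ± 0.08), FEN1 (-0.20 ± 0.08) and TIMELESS (-0.15 ± 0.06) lay near the threshold, with limma adjusted p of 0.0458, 0.0451 and 0.039. Leaving out single arrays gave adjusted p of up to 0.157 for TIPIN (without HSC-1 DMSO replicate 3), 0.151 for FEN1 (without HSC-1 DMSO replicate 2) and 0.133 for TIMELESS (without A431 DMSO replicate 1). PCNA (-0.09 ± 0.04), MCM10 (-0.16 ± 0.07), CDC6 (-0.13 ± 0.06), CDC45 (0.08 ± 0.06), E2F1 (0.10 ± 0.08), CCNE2 (0.02 ± 0.08), GINS3 (-0.16 ± 0.08) and GINS4 (-0.18 ± 0.10) did not pass.

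Other genes of S phase, on lists that hold no member, were described in the same fit. Over all tested genes, 11.3% fell and 7.34% rose in HSC-1, and 2.39% rose and 4.33% fell in A431. Of 18 other replisome and initiation genes tested, of 31 listed, 9 fell and 0 rose in HSC-1 (median -0.17), and 2 rose and 0 fell in A431 (median 0.06). In HSC-1 the fork factor DONSON (-0.38 ± 0.08), TRAIP, a ubiquitin ligase of the replisome (-0.32 ± 0.09), TICRR, which brings CDC45 to the helicase (-0.31 ± 0.05), and the clamp loader accessory DSCC1 (-0.31 ± 0.09) fell most. In A431 the risers were TICRR (0.21 ± 0.05) and the histone chaperone NASP (0.21 ± 0.06). Of 21 other G1/S regulators tested, of 29 listed, 9 fell and 3 rose in HSC-1 (median -0.18), and 4 rose and 0 fell in A431 (median 0.04). E2F8 (-0.53 ± 0.07) and E2F7 (-0.53 ± 0.07), repressive E2F proteins that are themselves E2F targets, fell in HSC-1, as did the cyclins CCND2 (-0.47 ± 0.13) and CCNA2 (-0.45 ± 0.04). The HSC-1 risers were TFDP2 (0.29 ± 0.06), a partner of E2F proteins, RBL2 (0.23 ± 0.07), a relative of the retinoblastoma protein, and the cyclin CCND1 (0.23 ± 0.04). The A431 risers were the cyclin CCNE1 (0.29 ± 0.08), E2F7 (0.25 ± 0.07), MYBL2 (0.20 ± 0.05), a transcription factor of cell cycle genes, and RB1 (0.17 ± 0.05), the retinoblastoma protein gene.

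Over all tested genes, the shares beside the next counts are 11.3% falling and 7.34% rising in HSC-1. In A431 they are 2.39% rising and 4.33% falling. Of 10 dNTP and thymidylate synthesis genes tested, of 14 listed, 4 fell and 0 rose in HSC-1 (median -0.17), and 1 rose and 0 fell in A431 (median 0.13). The HSC-1 falls were DTYMK, the thymidylate kinase (-0.50 ± 0.06), DCTPP1, which breaks down dCTP (-0.48 ± 0.05), and the ribonucleotide reductase subunits RRM2 (-0.34 ± 0.05) and RRM1 (-0.16 ± 0.05). The A431 riser was the CTP synthase CTPS1 (0.34 ± 0.08). Of 13 fork repair and checkpoint genes tested, of 27 listed, 5 fell and 0 rose in HSC-1 (median -0.18), and 0 passed in A431 in either direction (median 0.07, limma, 4 at an unadjusted p under 0.05). The share of all tested genes at that unadjusted cut-off was not counted. The largest HSC-1 falls were the recombination factors RAD54L (-0.46 ± 0.08) and RAD54B (-0.46 ± 0.07), the nuclease EXO1 (-0.29 ± 0.05) and USP1, a deubiquitinase that acts on PCNA (-0.21 ± 0.05). On each of these lists the HSC-1 median was nearer to 0 than the -0.29 of the 29 members, a difference that was not tested.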

How the data were processed

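RNA for 12 samples was hybridised to Affymetrix whole-transcript arrays. The authors deposited log2 values. Per the submitters' processing notes, these come from the RMA method and the program Affymetrix Expression Console. RMA corrects the background, quantile-normalizes all arrays and summarises probes, so a shift common to all genes would be removed. The version is not given in the sources used here. The table holds 53617 probe sets, of which 16098 carry 1 gene symbol in the platform annotation. All 16098 were matched to the RefSeq table of GRCh38.p14. Each gene was represented by its probe set with the highest mean over the 12 arrays, which left 14884 genes, and 10613 were tested because at least 3 arrays lay above their own array's 50th percentile.

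Groups were taken from the labels (4 groups of 3 arrays). One limma model (version 3.58.1, in R 4.3.3) with 4 group means, 8 residual degrees of freedom and an intensity trend in the variances gave the everolimus effect in each line, the difference of the effects and the difference of the lines in DMSO. P-values were adjusted by Benjamini-Hochberg over the 10613 genes, with a threshold of 0.05, and errors of differences are moderated standard errors. With 3 arrays in each group, their number limits the precision. The fitting code was tested on simulated data.

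The members and gene lists were chosen with earlier results of these data known. Array values are given for a fixed panel of members and for up to 4 members in each direction with the largest differences past the threshold in each comparison. The panel holds no gene of Okazaki fragment processing, and its polymerase gene POLE2 has no named probe set. Alternatives were the replicate number as a block, other level filters, thresholds, variance priors and scalings, array weights, each comparison's arrays alone, probe sets averaged per gene, a shorter E2F motif, and each array left out.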

Additional observations from a re-analysis of the deposited data

Results flagged for a closer look

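The response to everolimus differed between the lines for 22 of the 29 replication genes tested. The test was that of the interaction in limma, taken as HSC-1 minus A431 (adjusted p under 0.05 over all tested genes). Over all tested genes, 5.69% passed as lower in HSC-1 and 4.84% as higher. All 22 values were negative, and all are on the log2 scale. Of the genes that load the helicase, CDC6 differed by -0.55 and CDT1 by -0.30. Of the genes that activate it, GINS2 differed by -0.81, MCM10 by -0.70, GINS4 by -0.55, CDC45 by -0.46, GINS1 by -0.39 and CDC7 by -0.34. In the helicase and its relative MCM8, the differences were -0.42 for MCM8, -0.27 for MCM2, -0.23 for MCM7, -0.21 for MCM4 and -0.20 for MCM3. In fork protection CLSPN differed by -1.04, TIPIN by -0.48 and TIMELESS by -0.39. The nucleases FEN1 and DNA2 differed by -0.41 and -0.38, and UHRF1 by -0.49. Of the G1/S regulators, CDC25A differed by -0.48, CCNE2 by -0.42 and E2F1 by -0.42.

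Several of these calls lie near the threshold. Leaving out 1 array at a time ended the MCM4 call in 10 of 12 cases (adjusted p up to 0.0905), with differences of -0.22 to -0.18 in those cases. It ended the MCM3 and MCM7 calls in 8 of 12 each (up to 0.103 and 0.0904), with differences of -0.21 to -0.17 for MCM3 and -0.23 to -0.20 for MCM7. FEN1 lost its call in 7 of 12 cases (up to 0.0841, differences of -0.42 to -0.30), E2F1 in 6 (up to 0.0825, -0.42 to -0.34), CDT1 in 4 (up to 0.0708, -0.29 to -0.25) and CCNE2 in 3 (up to 0.0586, -0.39 to -0.36). MCM2 and CDC7 lost theirs without the intensity trend in the variances (0.0703 and 0.0527), and CLSPN with the mean of its probe sets (0.0637).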

How the results depend on the processing

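No called replication gene changed sign under any alternative in which it was tested. In A431, 714 of all tested genes passed, and this number was 438 without the intensity trend, 347 at an adjusted p under 0.01, 66 with a change of at least 1.5-fold as well, and 452 to 839 with 1 array left out (452 without replicate 1 and 453 without replicate 2 of A431 DMSO). The 2 replication genes that rose there became 1 with the mean of probe sets and 0 at 1.5-fold, and stayed 2 with any array left out. In HSC-1, 1977 of all genes passed, against 1115 at 0.01, 139 at 1.5-fold and 1405 to 2032 with 1 array left out. The 25 replication genes that fell became 0 at 1.5-fold and 21 to 25 with 1 array left out. For the difference between lines, 1118 of all genes passed, against 541 at 0.01 and 228 at 1.5-fold. Its 22 replication genes became 14 without the intensity trend, 11 at 0.01, 3 at 1.5-fold and 15 to 21 with 1 array left out. Between the lines in DMSO, 6303 of all genes passed, against 2817 at 1.5-fold, and the 10 higher and 11 lower replication genes became 5 and 2 at 1.5-fold, and 8 to 10 and 9 to 13 with 1 array left out. Stricter thresholds call fewer genes by construction, and for the intensity trend the cause was not tested. The shorter E2F motif (2 T, then 2 of C or G, then CGC) was in 79.2% of the 24 promoters, against 19.5% of those of tested genes. With a replicate block, 25 replication genes fell in HSC-1, 2 rose in A431 and 20 passed the difference between lines, with MCM3 and MCM7 lost. In DMSO 9 were higher and 10 lower under that block, with TIPIN and FEN1 lost. The labels do not say whether the replicate numbers pair the arrays. Deviations of same-numbered arrays correlated at -0.145 to 0.018 in A431 and -0.155 to -0.011 in HSC-1. Of 12 arrays, 1 correlated best with its own number. With 3 arrays in each group, these values cannot decide whether same-numbered arrays were handled together.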

Other observations

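Several regulators of the G1/S step that are not replication genes themselves differed widely between the lines in DMSO. These genes were chosen after their values were seen. The D-type cyclin CCND2 averaged 9.09 ± 0.04 in HSC-1 and 4.44 ± 0.23 in A431 (SD, n = 3 each). It was higher on every HSC-1 array, but the A431 DMSO arrays, at 4.67, 4.44 and 4.20, lay around their array medians of 4.34, 4.34 and 4.35, so no fold is given. The related cyclin CCND1 went the other way, at 8.37 ± 0.05 in HSC-1 and 9.70 ± 0.02 in A431 (log2 difference -1.33, as in the brackets that follow). RB1, which encodes the retinoblastoma protein, was 2.77-fold higher in HSC-1 (1.47), the cyclin D partner kinase CDK6 was 2.60-fold higher (1.38) and the cyclin CCNE1 was 2.42-fold higher (1.27). The repressor E2F8 was lower in HSC-1 (-1.19), as was SAMHD1, an enzyme that breaks down dNTPs (-1.34). Of the 21 other G1/S regulators tested, 9 were higher and 8 lower in HSC-1, against 29.2% and 30.2% of all tested genes.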
